A study of Mus musculus with 34 samples.

Results

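Vimentin and 9 genes of the smooth muscle type of contractile cytoskeleton were followed through the NaJa cell lines, which are mouse colorectal cancer lines. The 10 genes were chosen by symbol (Vim, Acta2, Tagln, Cnn1, Cnn2, Myl9, Tpm1, Tpm2, Cald1 and Vcl) and all 10 were found among the 14107 genes of the count table. NaJa-D, NaJa-F and NaJa-G each grew out of the peritoneal lavage of 1 recipient mouse that carried transplanted colon organoids. A difference between lines is therefore also a difference between 3 single recipient mice. The paper traces all 3 lines to a single organoid culture. All 3 lines shared the strain C57BL/6N and the genotype VillinCreERT2::BrafV600E/+::Trp53R172H::APCdel, in which a Cre driven by Villin, a gene of gut epithelium, recombined the alleles in the organoids. Each line received 0.5 µM encorafenib, an inhibitor of mutant BRAF kinase, or the solvent DMSO. Cells were harvested on day 1, or on day 5 after further doses on days 2 and 4. These 12 groups of line, treatment and day held 34 libraries, with 3 libraries a group except for NaJa-F with encorafenib on day 5 and NaJa-G with DMSO on day 5, which had 2 each.

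Vimentin forms the intermediate filaments of mesenchymal cells and is a common marker of epithelial cells that take on mesenchymal features. Acta2 encodes smooth muscle alpha-actin. Transgelin (Tagln), the calponins (Cnn1, Cnn2), tropomyosins (Tpm1, Tpm2) and caldesmon (Cald1) bind actin filaments and regulate their contraction. Myl9 is the regulatory light chain of non-muscle and smooth muscle myosin, and vinculin (Vcl) links actin filaments to adhesion sites. Many of these contractile genes are known targets of serum response factor (SRF) and its cofactors of the myocardin family, which bind a DNA element called the CArG box. SRF is also served by cofactors of the ELK family, which are targets of ERK, the kinase downstream of BRAF.

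Total counts ran from 46007050 to 80121299 per library, and levels are given as CPM, read counts scaled to a common library total with TMM factors. A gene was called where limma-voom gave it a p below 0.01 after Benjamini-Hochberg adjustment across the 14107 genes. The sources do not say that the replicates were separate cultures, so p-values measure the spread between these libraries. One library, by its title replicate 3 of NaJa-D with DMSO on day 1, carried the name NaJa-G in another label. It was kept under its title, and its log2 CPM correlated at 0.993 with both other libraries of its titled group and at 0.911 to 0.914 with NaJa-G DMSO day 1. Without it, the number of the 10 genes called under encorafenib in NaJa-D on day 1 was 8, as with it. In bulk RNA, a change in the number of cells of one type and a change in RNA per cell cannot be told apart. All 7 epithelial markers examined were in the table, and their summed level was 2570 to 9077 CPM in every library. Villin itself (Vil1) was low, at a mean of 0.35 to 13.5 CPM in the 12 groups.

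The stretches before the transcription starts of 4 of the genes are shown because they hold the CArG box that SRF is known to bind. The element was searched as CCNNNNNNGG with A or T at every N (on both strands, since the pattern is its own reverse complement) in the 250 bases before each RefSeq start (build GRCm38.p6). Of 32851 such windows in the RefSeq table, 482 (1.47%) held an exact match and 2823 (8.59%) a match with at most 1 G or C among the 6 inner letters. Windows of 9 of the 10 genes were in the table. Cnn2, Myl9 and Vcl had an exact match, and Acta2 had 2 matches with 1 G or C. Matches are in capitals, each sequence runs 5′ to 3′ along its gene, and the stretches of Cnn2 and Myl9 end before the first exon annotated in GENCODE. On the plus strand, the Cnn2 stretch is chr10:79988350-79988583, that of Myl9 chr2:156775214-156775419 and that of Vcl chr14:20929148-20929397. On the minus strand, the Acta2 sites are chr19:34255438-34255467 and chr19:34255388-34255417. Vim, Cnn1, Tpm1, Tpm2 and Cald1 had no match of either kind in their windows, which says only that these letters are not in them. A match describes these letters and does not show binding.
Cnn2: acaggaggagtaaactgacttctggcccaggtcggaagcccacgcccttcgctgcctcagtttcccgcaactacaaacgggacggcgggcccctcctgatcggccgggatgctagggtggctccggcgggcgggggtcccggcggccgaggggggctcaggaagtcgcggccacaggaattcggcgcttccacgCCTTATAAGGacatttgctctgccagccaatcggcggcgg
Myl9: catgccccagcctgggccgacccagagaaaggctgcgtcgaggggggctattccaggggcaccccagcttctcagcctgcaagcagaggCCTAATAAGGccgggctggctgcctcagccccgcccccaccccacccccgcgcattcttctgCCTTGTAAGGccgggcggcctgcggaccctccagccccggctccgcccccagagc
Vcl: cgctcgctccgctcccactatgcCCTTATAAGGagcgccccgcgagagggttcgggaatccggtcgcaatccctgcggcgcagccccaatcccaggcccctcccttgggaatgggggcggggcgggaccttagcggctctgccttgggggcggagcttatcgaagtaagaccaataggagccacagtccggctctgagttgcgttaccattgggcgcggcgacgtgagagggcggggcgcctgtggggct
Acta2 site 1: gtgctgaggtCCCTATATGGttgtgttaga
Acta2 site 2: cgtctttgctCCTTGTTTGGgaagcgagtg

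In the GENCODE M21 annotation of GRCm38, Vim is at chr2:13573927-13582826, Cnn1 at chr9:22099216-22109630 and Cnn2 at chr10:79988584-79996062 on the plus strand. Myl9 (chr2:156775420-156781658), Cald1 (chr6:34598500-34775473) and Vcl (chr14:20929398-21033676) are also on the plus strand. Acta2 (chr19:34241090-34255590), Tagln (chr9:45929619-45936058), Tpm1 (chr9:67022590-67049406) and Tpm2 (chr4:43514711-43523765) are on the minus strand. Counts were summed over each gene, so no exon was resolved.

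The 10 genes split into those expressed in every library and those near the limit of the table. Vim, Tagln, Cnn2, Tpm1, Cald1 and Vcl exceeded 1 CPM in all 34 libraries. Tpm2 did so in 17 libraries, Acta2 in 15, Myl9 in 9 and Cnn1 in 6. The table holds only genes above 1 CPM in at least 2 libraries, and Cnn1 and Myl9 met that limit through NaJa-G alone, so their calls against NaJa-G are not independent of the filter. The 6 libraries of Cnn1 were those of NaJa-G with encorafenib, so its rise there is not independent of it either. Measured per kilobase of exon, the order of levels also differed between lines. In NaJa-G with DMSO on day 1 Vim led at 528 CPM per kb, ahead of Tpm1 at 145 and Cnn2 at 130 CPM per kb. In NaJa-D under the same condition Tpm1 led at 77.7 CPM per kb, Cnn2 had 64.1 and Vim had 26.1 CPM per kb. Acta2 stood at 13.2 CPM per kb in NaJa-G and 0.0285 CPM per kb in NaJa-D.

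**Figure D1:**
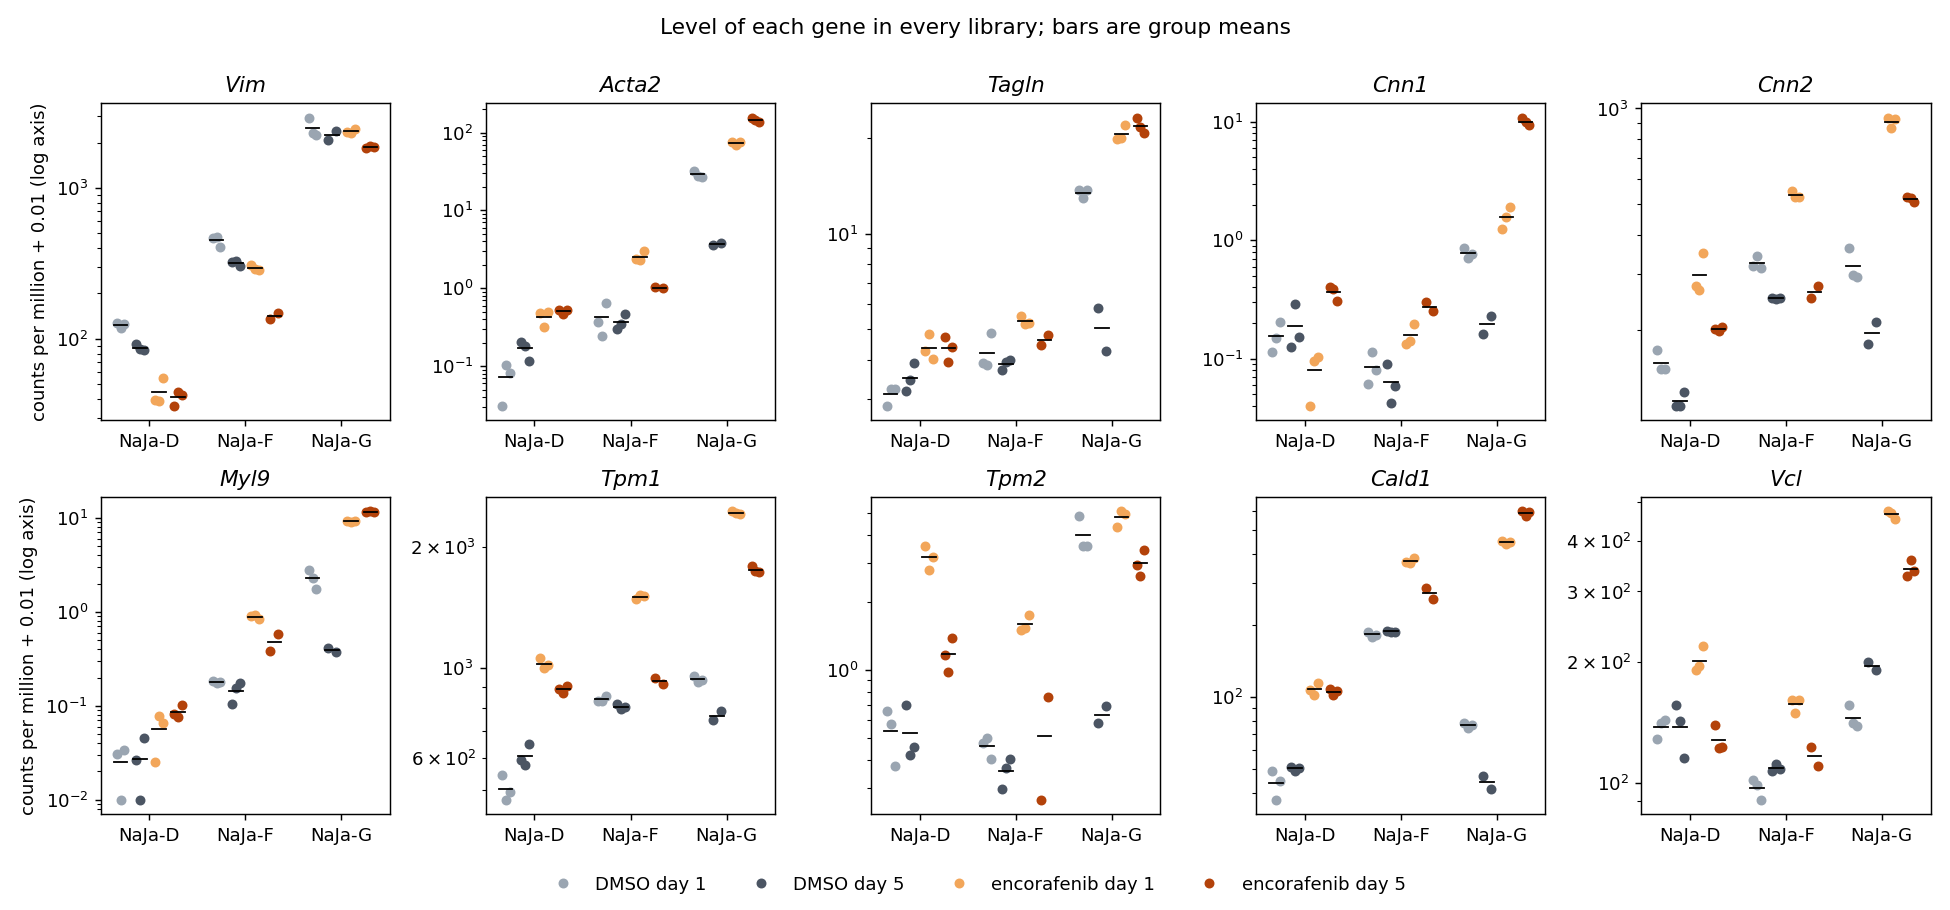
Level of each of the 10 genes in all 34 libraries, as CPM with 0.01 added, on a log axis. Points are libraries, coloured by treatment and day, short bars are group means, and lines are side by side. Vim lies between 36.0 and 2930 CPM and separates the 3 lines at every condition, while Acta2, Cnn1 and Myl9 reach their highest levels in NaJa-G with encorafenib on day 5.

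Vimentin separated the lines, lowest in NaJa-D and highest in NaJa-G. With DMSO on day 1 the Vim levels were 127, 118 and 125 CPM for NaJa-D. NaJa-F had 466, 472 and 409 CPM, while NaJa-G had 2930, 2323 and 2255 CPM. The ranges of the 3 lines did not overlap. Taken over both DMSO days, the Vim level of NaJa-F was 3.63-fold that of NaJa-D (log2 1.86, SE 0.07, adjusted p 8.68e-20). NaJa-G stood 22.6-fold above NaJa-D (log2 4.5, SE 0.08, adjusted p 1.37e-27) and 6.23-fold above NaJa-F (log2 2.64, SE 0.08, adjusted p 9.21e-22). Ordered by their means, all 4 NaJa-D groups came first (41.0 to 124 CPM), then the NaJa-F groups (141 to 449 CPM), then the NaJa-G groups (1867 to 2503 CPM). Within that order 4 pairs of neighbouring groups overlapped in their libraries, all of them inside one line.

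Encorafenib lowered Vim in NaJa-D and NaJa-F. In NaJa-D on day 1 the libraries with encorafenib had 39.5, 39.0 and 54.8 CPM, all below the DMSO libraries, and Vim fell by 1.5 on the log2 scale (SE 0.09, adjusted p 1.87e-13). On day 5 the encorafenib libraries of NaJa-D had 36.0, 44.5 and 42.4 CPM against 92.0, 85.4 and 84.7 CPM in DMSO, and Vim fell by 1.09 on the log2 scale (SE 0.09, adjusted p 1.55e-10). These groups did not overlap either. In NaJa-F on day 1 the encorafenib libraries held 310, 292 and 286 CPM, and Vim fell by 0.60 on the log2 scale (SE 0.10, adjusted p 1.35e-05). On day 5 the 2 encorafenib libraries of NaJa-F held 135 and 148 CPM against 323, 327 and 304 CPM in DMSO, and Vim fell by 1.17 on the log2 scale (SE 0.10, adjusted p 8.22e-10). Thus all 4 comparisons in these lines had lower Vim with no overlap between groups.

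In NaJa-G the level of Vim was not called under encorafenib. On day 1 the encorafenib libraries had 2360, 2305 and 2462 CPM, inside the range of the DMSO libraries (log2 change -0.06, 95% CI -0.29 to 0.17, adjusted p 0.635). On day 5 they had 1834, 1911 and 1857 CPM, below the 2 DMSO libraries at 2087 and 2383 CPM (log2 change -0.25, 95% CI -0.51 to 0.00, adjusted p 0.0771). With scaling by library size alone this day 5 value was called (log2 change -0.30, adjusted p 0.00376). The response of Vim itself differed between NaJa-G and NaJa-D by 1.44 on the log2 scale on day 1 (adjusted p 6.73e-09) and by 0.84 on day 5 (adjusted p 0.000123), in a test of the interaction. Vim also fell with time in DMSO, by 0.50 on the log2 scale from day 1 to day 5 in both NaJa-D (adjusted p 7.15e-05) and NaJa-F (adjusted p 0.000369). In NaJa-G the change with time was -0.16 on the log2 scale and was not called (adjusted p 0.332).

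Smooth muscle alpha-actin was the most variable of the 10 genes. Its group means ran from 0.0625 CPM in NaJa-D with DMSO on day 1 to 145 CPM in NaJa-G with encorafenib on day 5. With DMSO on day 1 the Acta2 levels of NaJa-G were 32.5, 27.5 and 27.2 CPM, while the 3 libraries of NaJa-D held 1, 4 and 3 reads and those of NaJa-F 21, 16 and 46 reads. On day 5 NaJa-G had 3.56 and 3.85 CPM of Acta2 in its 2 DMSO libraries, so the level fell by 2.96 on the log2 scale over the culture time (SE 0.14, adjusted p 1.16e-15). NaJa-G therefore exceeded NaJa-D in Acta2 by 8.82 on the log2 scale on day 1 alone and by 4.51 on day 5 alone (adjusted p 1.84e-15 and 1.71e-11). Against NaJa-F the differences were 6.21 and 3.36 on the log2 scale (adjusted p 3.06e-18 and 6.33e-11).

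Acta2 rose under encorafenib in all 6 comparisons. In NaJa-G on day 1 the encorafenib libraries had 76.0, 69.6 and 75.0 CPM, which was 2.53-fold above DMSO (log2 1.34, SE 0.07, adjusted p 5.19e-16). On day 5 they had 156, 143 and 137 CPM, which was 39.0-fold above DMSO (log2 5.29, SE 0.13, adjusted p 1.51e-22). Both a higher level with encorafenib and a lower level with DMSO entered the day 5 value, since the DMSO mean went from 29.1 CPM on day 1 to 3.71 CPM on day 5. The response on day 5 exceeded that on day 1 by 3.95 on the log2 scale (SE 0.15, adjusted p 1.61e-17).

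In NaJa-F the encorafenib libraries held 2.34, 2.33 and 2.97 CPM of Acta2 on day 1 against 0.36, 0.237 and 0.644 CPM in DMSO, a 6.47-fold rise (log2 2.69, SE 0.28, adjusted p 6.29e-09). On day 5 they held 1.04 and 0.99 CPM against 0.286, 0.34 and 0.458 CPM in DMSO (log2 1.49, SE 0.34, adjusted p 0.00137). That call was lost without DMSO replicate 1 (log2 1.33, adjusted p 0.0116) or encorafenib replicate 1 (log2 1.45, adjusted p 0.0121). In NaJa-D the encorafenib libraries had 31, 18 and 26 reads of Acta2 on day 1 and 29, 35 and 28 reads on day 5, against 1 to 4 and 6 to 12 reads in DMSO. These low counts did not overlap, and the log2 changes were 2.71 (SE 0.55, adjusted p 0.000135) and 1.62 (SE 0.42, adjusted p 0.00249). The day 5 call was lost without DMSO replicate 3 (log2 1.37, adjusted p 0.0232).

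**Figure D2:**
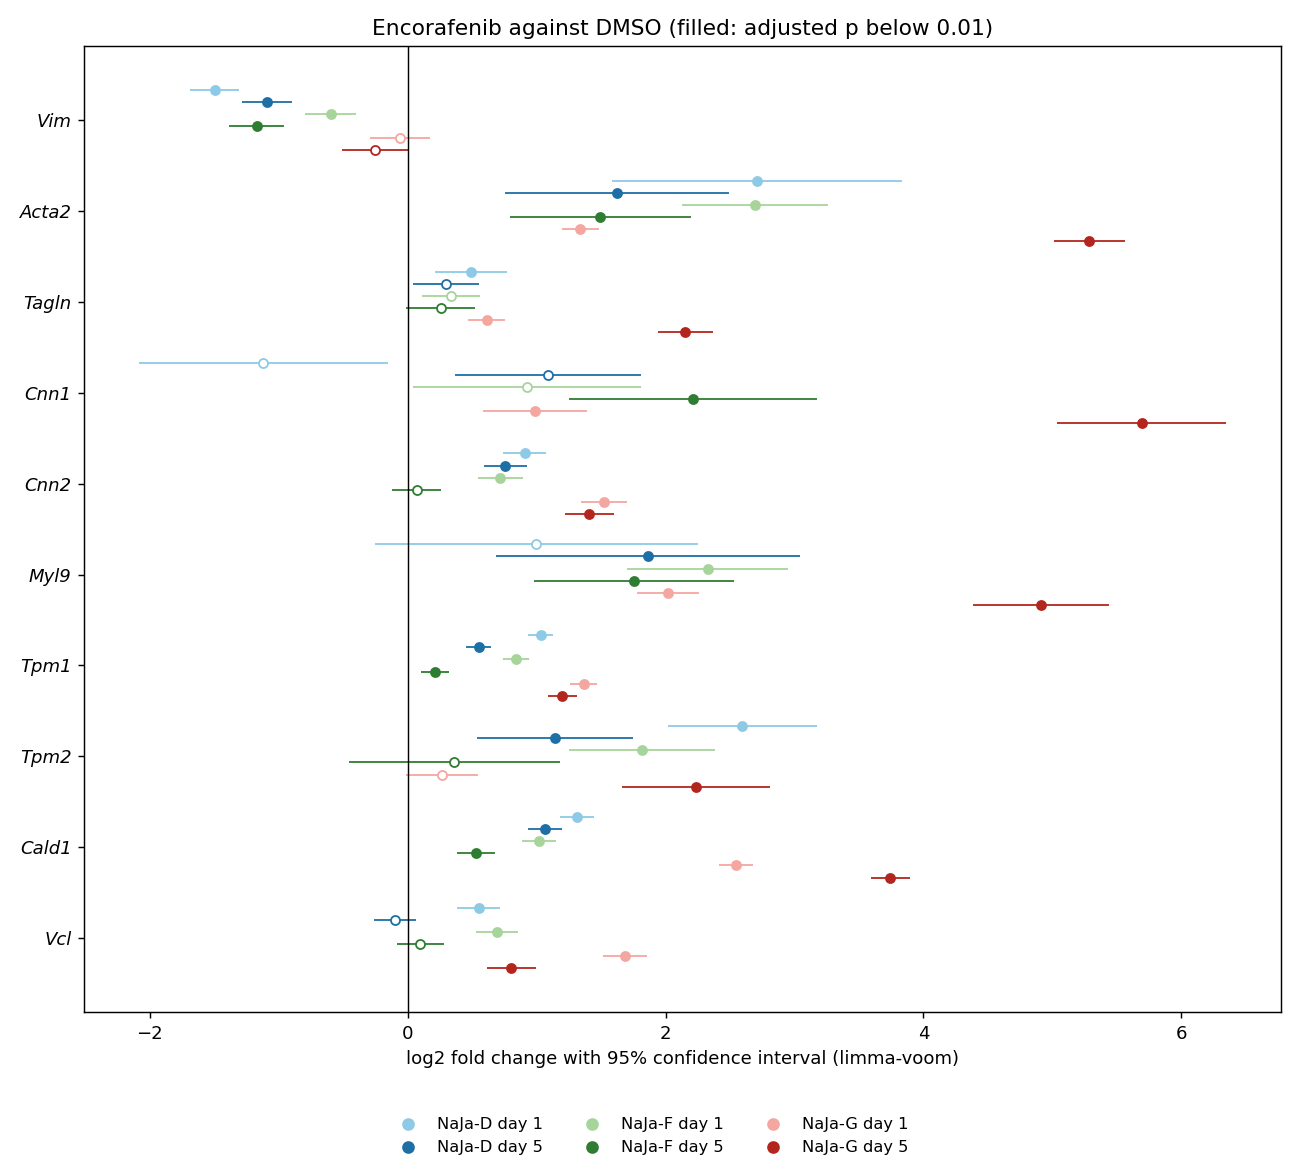
Log2 fold change of each gene with encorafenib against DMSO in limma-voom, with 95% confidence intervals, for the 3 lines and 2 days. Filled points have an adjusted p below 0.01. Vim lies below 0 at every point, with open points in NaJa-G, and Acta2, Cnn1 and Myl9 reach 5.29, 5.69 and 4.91 in NaJa-G on day 5.

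Counted together, 7 of the 10 genes rose and 1 fell under encorafenib in NaJa-D on day 1, where 44.9% of all genes were called. On day 5 in NaJa-D 6 rose and 1 fell, against 33.0% of all genes called. In NaJa-F 7 rose and 1 fell on day 1 (29.5% of all genes called), and 5 rose and 1 fell on day 5 (18.2% of all genes called). In NaJa-G 8 rose on day 1 and 9 on day 5 with 0 falling, where 64.0% and 53.2% of all genes were called. Without Cnn1, which is in the table through its encorafenib libraries, these counts were 7 and 8 of 9. Calls upward alone covered 23.7%, 18.3%, 17.5%, 9.7%, 35.3% and 28.5% of all genes in the same order, and calls downward 21.2%, 14.7%, 12%, 8.5%, 28.7% and 24.7%. The gene that fell was Vim each time. The median log2 change of the 10 genes on days 1 and 5 was 0.95 and 0.91 for NaJa-D. It was 0.88 and 0.31 for NaJa-F and 1.35 and 2.19 for NaJa-G, while the median of all genes lay between -0.02 and 0.04. Together the 10 genes took 0.403% ± 0.044 (SD, n = 3) of all counts in NaJa-G with DMSO on day 1 and 0.673% ± 0.0112 (SD, n = 3) with encorafenib. The same share was 0.0971% ± 0.00508 (SD, n = 3) and 0.169% ± 0.00759 (SD, n = 3) in NaJa-D.

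Among the actin-binding regulators, caldesmon rose in every line and on both days. In NaJa-G on day 1 the Cald1 levels went from 77.9, 74.7 and 76.8 CPM in DMSO to 451, 440 and 448 CPM, a 5.84-fold rise (log2 2.55, SE 0.06, adjusted p 4.53e-23). On day 5 they went from 46.8 and 41.5 CPM to 600, 572 and 598 CPM, a 13.4-fold rise (log2 3.74, SE 0.07, adjusted p 3.22e-25). Neither pair of groups came near overlap. In NaJa-D the Cald1 rise was 2.48-fold on day 1 (43.8 ± 6.08 to 108 ± 6.64 CPM, SD, n = 3) and 2.09-fold on day 5 (50.4 ± 1.05 to 106 ± 3.51 CPM, SD, n = 3). In NaJa-F it was 2.03-fold on day 1 (183 ± 4.05 to 372 ± 10.1 CPM, SD, n = 3) and 1.45-fold on day 5 (189 ± 1.43, n = 3, to 273 ± 20.6 CPM, n = 2, SD). Adjusted p-values of these 4 comparisons lay between 1.36e-15 and 1.13e-06.

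The order of the lines for caldesmon was different from that for vimentin. In DMSO NaJa-F had the highest Cald1 level, 3.97-fold above NaJa-D (log2 1.99, SE 0.05, adjusted p 4.64e-24), and NaJa-G was lower than NaJa-F (log2 -1.68, SE 0.05, adjusted p 1.59e-22). The comparison of NaJa-G with NaJa-D depended on the day, with a log2 difference of 0.81 on day 1 alone (adjusted p 7e-12) and -0.20 on day 5 alone (adjusted p 0.0177). With encorafenib on day 5 the NaJa-G mean of 590 CPM was the highest of the 12 groups.

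The calponins differed in level and in pattern. Cnn2, the calponin of non-muscle cells, was abundant everywhere and rose under encorafenib in NaJa-D (297 ± 46.4 against 158 ± 12.5 CPM on day 1, SD, n = 3, log2 0.91, adjusted p 2.65e-10). In NaJa-F it rose on day 1 (534 ± 12.6 against 324 ± 15.1 CPM, SD, n = 3, log2 0.72, adjusted p 9.21e-08), and on day 5 it was not called (264 ± 16.2, n = 2, against 251 ± 0.952 CPM, n = 3, SD, log2 0.07, 95% CI -0.12 to 0.26, adjusted p 0.631). In NaJa-G it rose 2.87-fold on day 1 and 2.66-fold on day 5 (adjusted p 3.85e-15 and 2.18e-13).

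Cnn1, the calponin of differentiated smooth muscle, was near 0 outside NaJa-G, with at most 29 reads in any library of NaJa-D or NaJa-F. In NaJa-G with DMSO it had 65, 52 and 45 reads on day 1 and 9 and 16 reads on day 5. With encorafenib it had 1.23, 1.55 and 1.9 CPM on day 1 (log2 change 0.99, SE 0.20, adjusted p 6.25e-05) and 10.8, 9.86 and 9.28 CPM on day 5 (log2 change 5.69, SE 0.32, adjusted p 5.21e-15). The fold on day 5 was 51.7 against 2 DMSO libraries with 9 and 16 reads, and the gene passed the filter of the table through these encorafenib libraries. In NaJa-F on day 5 Cnn1 was called on 17 and 15 reads against 5, 2 and 3 reads in DMSO (log2 change 2.22, SE 0.47, adjusted p 0.000601). In NaJa-D the log2 changes of -1.12 on day 1 and 1.09 on day 5 were not called (adjusted p 0.0441 and 0.0129), though edgeR called the second (log2 1.04, adjusted p 0.00614).

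The tropomyosins stabilise actin filaments. Tpm1 was called higher in all 6 comparisons, with the largest rise in NaJa-G on day 1, from 958, 926 and 938 CPM in DMSO to 2442, 2416 and 2412 CPM (log2 1.37, SE 0.05, adjusted p 1.83e-19). In NaJa-G on day 5 the rise was 2.29-fold, and in NaJa-D it was 2.04-fold on day 1 and 1.47-fold on day 5. In NaJa-F it was 1.79-fold on day 1 and 1.16-fold on day 5. The last of these (931 ± 20.1, n = 2, against 804 ± 12.4 CPM, n = 3, SD, adjusted p 0.00353) lost its call when any 1 of the 5 libraries was left out, with log2 changes of 0.18 to 0.21 and adjusted p-values up to 0.0673.

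Tpm2 was scarce, at 0.119 to 1.64 CPM per kb across the groups against 77.7 to 374 CPM per kb for Tpm1. In NaJa-D on day 1 it rose from 31, 24 and 15 reads in DMSO to 237, 163 and 169 reads (log2 2.60, SE 0.28, adjusted p 1.06e-08). In NaJa-D on day 5 the rise was 2.21-fold (adjusted p 0.00225), a call lost without DMSO replicate 2 (log2 1.02, adjusted p 0.0147), DMSO replicate 3 (log2 1.05, adjusted p 0.0156) or encorafenib replicate 3 (log2 1.03, adjusted p 0.0116). In NaJa-F on day 1 it rose 3.53-fold (adjusted p 4.6e-06). In NaJa-G on day 1 the DMSO libraries already had 4.84, 3.58 and 3.54 CPM, and the encorafenib libraries with 4.31, 5.08 and 4.96 CPM overlapped with them (log2 change 0.26, 95% CI -0.01 to 0.54, adjusted p 0.0815). By day 5 the DMSO level of NaJa-G had fallen to 0.569 and 0.679 CPM and encorafenib libraries held 2.93, 2.61 and 3.4 CPM (log2 change 2.24, SE 0.28, adjusted p 6.99e-08). The NaJa-F day 5 libraries with encorafenib differed from each other, at 15 and 46 reads, and the log2 change of 0.36 was not called (adjusted p 0.555).

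Transgelin was called in 3 of the 6 encorafenib comparisons. In NaJa-G it rose from 13.7, 12.9 and 13.7 CPM to 19.9, 20.1 and 22.0 CPM on day 1 (log2 0.61, SE 0.07, adjusted p 7.78e-09). On day 5 it rose from 5.82 and 4.25 CPM to 23.2, 21.8 and 20.8 CPM (log2 2.15, SE 0.10, adjusted p 1.52e-16). In NaJa-D and NaJa-F all levels of Tagln lay between 2.85 and 5.50 CPM. The call in NaJa-D on day 1 (log2 0.49, adjusted p 0.00318) was lost without DMSO replicate 1 (log2 0.40, adjusted p 0.0359) and without encorafenib replicate 2 (log2 0.42, adjusted p 0.0196). That call was also lost in a fit of these groups alone (log2 0.47, adjusted p 0.0204). Tagln shares 108 bases with Pcsk7 on the opposite strand, and Pcsk7 had 36.8 to 72.9 CPM in these libraries. The use of strand in counting is not given in the sources used here, so reads of the pair in that stretch cannot be told apart.

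Myosin light chain 9 followed the pattern of Acta2. In NaJa-G the Myl9 levels went from 2.77, 2.26 and 1.73 CPM in DMSO to 9.36, 8.98 and 9.18 CPM with encorafenib on day 1 (log2 2.02, SE 0.12, adjusted p 4.63e-15). On day 5 they went from 0.401 and 0.36 CPM to 11.6, 11.7 and 11.6 CPM, a 30.1-fold rise (log2 4.91, SE 0.26, adjusted p 9.71e-16). In NaJa-F, Myl9 rose from 10, 11 and 12 reads to 57, 62 and 57 reads on day 1 (log2 2.33, SE 0.30, adjusted p 4.49e-07). On day 5 it rose from 6, 9 and 10 reads to 22 and 35 reads (log2 1.75, SE 0.38, adjusted p 0.000701), a call lost without encorafenib replicate 2 (log2 1.43, adjusted p 0.0254). In NaJa-D each library held 0 to 5 reads. The summed reads on day 5 were 14 with encorafenib and 3 with DMSO, a ratio of 4.13 with an exact 95% counting interval of 1.15 to 22.4, and the call there (adjusted p 0.0095) was lost in edgeR (adjusted p 0.0293), in DESeq2 (adjusted p 0.0612) and without any 1 of 5 of the 6 libraries.

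Vinculin, the adhesion site protein, rose on day 1 in every line and on day 5 was called in NaJa-G and in neither other line. On day 1 Vcl was 1.46-fold higher in NaJa-D (202 ± 15.3 against 138 ± 8.13 CPM), 1.62-fold higher in NaJa-F (157 ± 6.74 against 97.1 ± 5.59 CPM) and 3.22-fold higher in NaJa-G (467 ± 11 against 145 ± 9.55 CPM, SD, n = 3 each). Adjusted p-values were 1.53e-06, 4.98e-08 and 1.27e-16. On day 5 the log2 change was 0.80 in NaJa-G (SE 0.09, adjusted p 1.81e-08), -0.10 in NaJa-D (95% CI -0.26 to 0.07, adjusted p 0.336) and 0.10 in NaJa-F (95% CI -0.08 to 0.28, adjusted p 0.46). The drop of the response from day 1 to day 5 was itself called in all 3 lines, with log2 differences of -0.65 for NaJa-D, -0.60 for NaJa-F and -0.88 for NaJa-G (adjusted p 0.000231, 0.00093 and 1.62e-06). The gene Ap3m1 shares 2235 bases with Vcl on the opposite strand and had 23.7 to 53.8 CPM.

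The lines were then compared with each other in DMSO, each as the average of its 2 days. NaJa-G exceeded NaJa-D in all 10 genes, where 67.4% of all genes were called (33.3% higher and 34.1% lower). Leaving aside Cnn1 and Myl9, whose place in the table rests on NaJa-G, 8 of 8 were higher. NaJa-G exceeded NaJa-F in 7 genes and fell below it in 2, Cnn2 and Cald1 (54.4% of all genes called, 25.2% higher and 29.2% lower). Without Cnn1 and Myl9, 5 of 8 were higher and 2 lower. NaJa-F exceeded NaJa-D in 7 genes and fell below it in 2, Cnn1 and Vcl (61.6% of all genes called, 32.6% higher and 29.0% lower). Several differences held on 1 of the 2 DMSO days alone. On day 5 alone Cnn1 (log2 0.17, adjusted p 0.734) and Tpm2 (log2 0.29, adjusted p 0.48) were not called between NaJa-G and NaJa-D, and on day 1 alone Vcl was not called (log2 0.07, adjusted p 0.423). Cald1 went the other way on day 5 alone and was not called (log2 -0.20, adjusted p 0.0177). Between NaJa-G and NaJa-F the Cnn2 call (log2 -0.20, adjusted p 0.00642) was lost with DESeq2 (log2 -0.17, adjusted p 0.0239), with RLE scaling (adjusted p 0.0231), with a fit of these groups alone (adjusted p 0.0367) and on day 1 alone (log2 -0.03, adjusted p 0.767). It was also lost in 7 of the 11 refits that left out 1 library, with an adjusted p of up to 0.0813. Tagln (log2 0.35, adjusted p 0.0214) and Tpm2 (log2 0.85, adjusted p 0.0503) were not called between these lines on day 5 alone. Between NaJa-F and NaJa-D the Tagln call (log2 0.30, adjusted p 0.00625) was lost on day 5 alone (log2 0.15, adjusted p 0.315) and in 7 of the 12 refits without 1 library, with an adjusted p of up to 0.0271. Acta2 was not called there on day 5 alone (log2 1.15, adjusted p 0.0249), nor Cnn1 on day 1 alone (log2 -0.92, adjusted p 0.0859). The comparisons share libraries, since each line enters 2 of them.

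**Figure D3:**
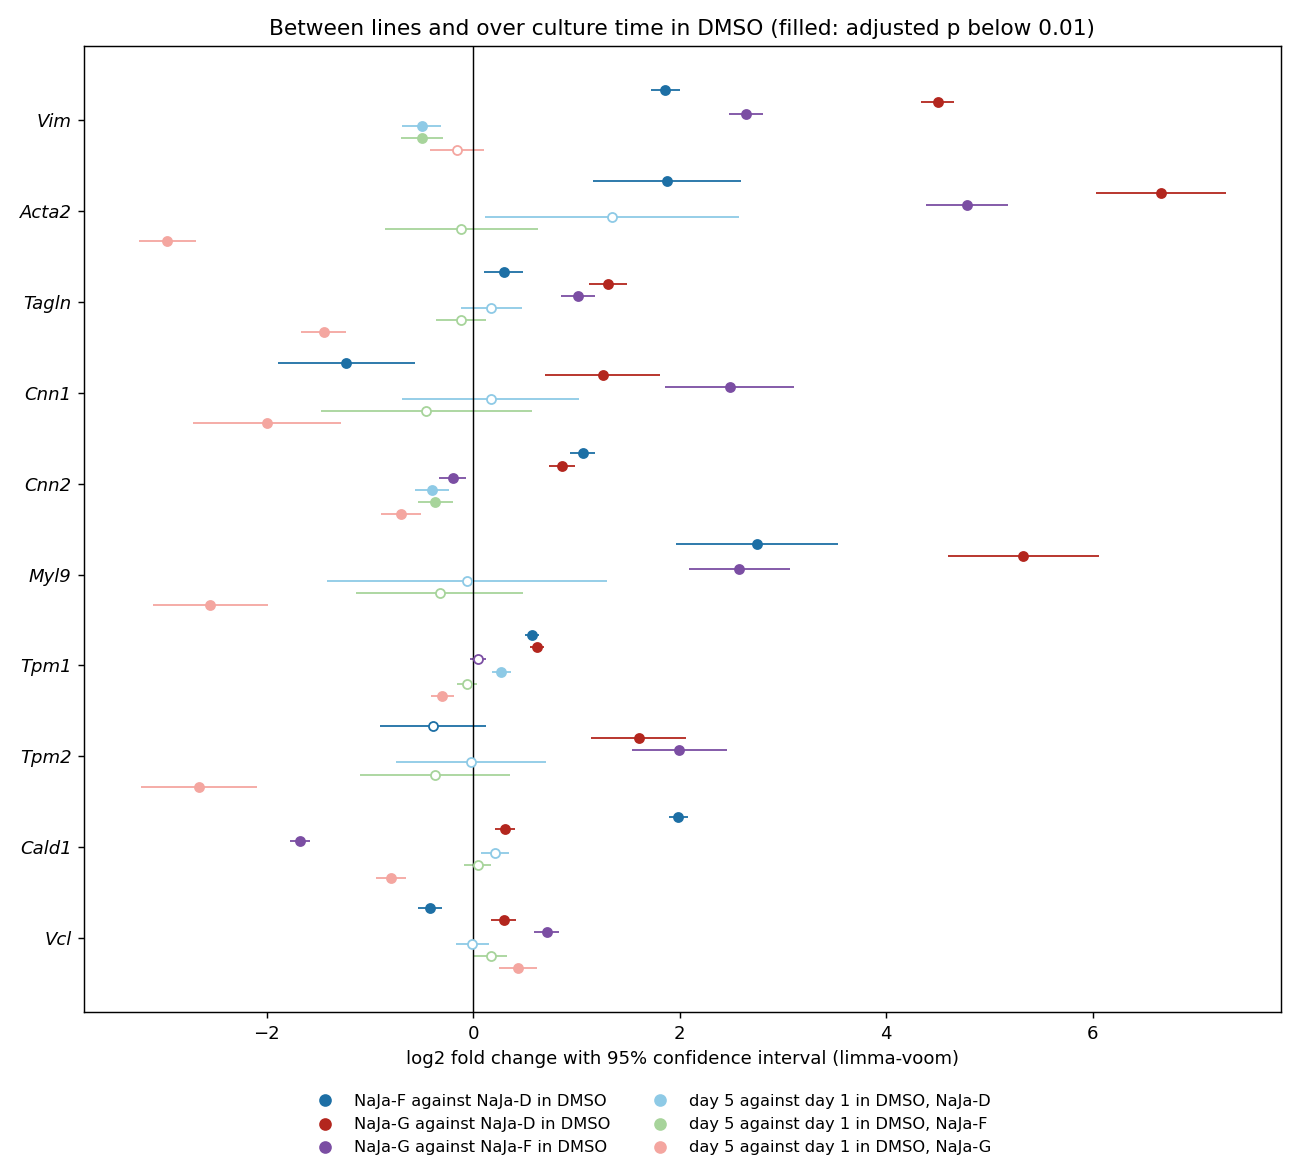
Log2 fold change of each gene between lines in DMSO (mean of both days) and from day 1 to day 5 in DMSO, with 95% confidence intervals from limma-voom. Filled points have an adjusted p below 0.01. Acta2, Cnn1, Myl9 and Tpm2 lie at -2.0 to -2.96 with culture time in NaJa-G, and their culture-time points for NaJa-D and NaJa-F are open.

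Most of these genes also moved between the DMSO days in NaJa-G. Culture time and the further doses of solvent cannot be told apart here. From day 1 to day 5 in DMSO 8 of the 10 fell and 1 rose in NaJa-G, where 34.1% of all genes were called (17.2% higher and 16.8% lower). Without Cnn1 and Myl9, 6 of 8 fell and 1 rose. The falls were largest for Acta2, Tpm2 (log2 -2.65, SE 0.27, adjusted p 8.58e-09), Myl9 (log2 -2.55, SE 0.27, adjusted p 1.37e-08) and Cnn1 (log2 -2.0, SE 0.35, adjusted p 3.53e-05). Tagln fell by 1.45, Cald1 by 0.80, Cnn2 by 0.70 and Tpm1 by 0.30 on the log2 scale, and Vcl rose by 0.43 (adjusted p 0.000302). In NaJa-D 2 genes fell (Vim and Cnn2) and 1 rose (Tpm1), against 29.0% of all genes called (13.7% higher and 15.3% lower). In NaJa-F 2 fell (Vim and Cnn2), against 16.7% of all genes called (9.73% higher and 7.01% lower).

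The encorafenib response of most of the genes differed between NaJa-G and the other lines when the difference itself was tested. On day 5 NaJa-G had a higher response than NaJa-D for 9 of the 10 genes (21.9% of all genes called, 14.1% higher and 7.82% lower) and higher than in NaJa-F for all 10 (24.2% called, 16.2% higher and 7.95% lower). For Vim a higher response means a smaller fall. On day 1 it was higher for 6 and lower for 1 against NaJa-D (36.4% called, 20.2% higher and 16.2% lower), and higher for 5 and lower for 2 against NaJa-F (33.5% called, 19.2% higher and 14.3% lower). Without Cnn1 and Myl9 the day 5 counts were 7 of 8 and 8 of 8. The day 1 counts were then 5 higher and 1 lower of 8 against NaJa-D, and 5 higher and 2 lower of 8 against NaJa-F. The gene with a lower response against both lines on day 1 was Tpm2. Between NaJa-F and NaJa-D the response of 1 gene was higher on day 1 (8.79% called, 4.49% higher and 4.3% lower) and that of 3 was lower on day 5 (8.85% called, 4.08% higher and 4.77% lower). From day 1 to day 5 the log2 response of 6 genes went up and that of 1 went down in NaJa-G (31.7% called, 15.5% up and 16.2% down). These counts were 4 up and 1 down of 8 without Cnn1 and Myl9. In NaJa-F 5 of the 10 went down (5.88% called, 0.929% up and 4.95% down), and in NaJa-D 2 did (7.29% called, 2.76% up and 4.54% down). Comparisons of NaJa-G with either line share its libraries, and its day 5 values rest on 2 DMSO libraries.

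Within the lines the 9 contractile genes correlated positively with each other, to very different degrees, and vimentin negatively with them. Correlations were taken over the 12 groups after removing each line's mean log2 CPM, as a description of 12 points that share their libraries and controls. Acta2 correlated at 0.963 with Myl9, at 0.926 with Tagln, at 0.909 with Cald1 and at 0.878 with Tpm1. Cnn2 correlated at 0.939 with Tpm1. Other pairs had lower values, such as Acta2 with Vcl (0.620), Tpm2 with Vcl (0.525) and Cnn1 with Cnn2 (0.428), and the lowest of all was 0.318 for Cnn1 with Tpm2. Vim correlated at -0.468 with Acta2 and at -0.183 to -0.468 with all 9 others. Likeness over all 12 group means, with the line differences left in, was sought among the 10276 genes with a mean log2 CPM of at least 2. The 3 of these genes most like Vim were Oaf (Pearson r 0.986), Chst11 (0.984) and Fgfr1 (0.983). Those most like Acta2 were Wbp4 (0.982), Col1a1 (0.977) and Uba3 (0.975). Those most like Tagln were Col1a1 (0.963), Arf4 (0.948) and R3hcc1 (0.935), and those most like Cnn1 were Hs6st2 (0.906), Tagln (0.890) and Palm (0.885). Acta2 and Myl9 were below that limit and not considered, though they correlated with Tagln at 0.970 and 0.945 over the same group means.

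Markers of other cell types were measured beside these results. Of 8 fibroblast markers 6 were in the table (not Lum or Thy1), and their sum was 2.62 to 8.92 CPM for NaJa-D and 4.84 to 9.11 CPM for NaJa-F, against 20.2 to 137 CPM for NaJa-G. In NaJa-G the sum was 57.6 to 78.0 CPM with DMSO on day 1 and 20.2 to 22.9 CPM on day 5, and it was 95.6 to 112 and 121 to 137 CPM with encorafenib. It thus moved in the same order as Acta2, and Col1a1, the main chain of collagen I, made up most of it with means of 42.1, 11, 70.0 and 71.1 CPM in those 4 groups. Of 5 smooth muscle markers only Actg2 and Lmod1 were in the table, while Myh11, Des and Synpo2, which define mature smooth muscle, were not. Their sum reached 16.4 CPM at most with NaJa-G, 1.9 CPM with NaJa-F and 0.168 CPM with NaJa-D. Within each treatment and day the epithelial sum was lowest in NaJa-G. Over all its groups that sum was 2570 to 5213 CPM, which overlapped 4399 to 7377 CPM in NaJa-F and 5131 to 9077 CPM in NaJa-D. Epcam, an epithelial adhesion protein, had group means of 66.2 to 139 CPM in NaJa-G against 801 to 1111 CPM in NaJa-D. The epithelial markers did not differ alike. With DMSO on day 1 Cdh1 had 518 CPM in NaJa-G against 1606 CPM in NaJa-D, and Krt19 had 716 against 965 CPM. Krt18 was higher in NaJa-G there, at 1313 against 1141 CPM. With encorafenib on day 1 Krt19 had 1923 CPM in NaJa-G and 1954 CPM in NaJa-D. Mesothelial markers, of which 3 of 4 were in the table (not Wt1), rose with encorafenib in each line without overlap. Their sum went from 1236 to 1514 CPM in DMSO to between 2604 and 3520 CPM for NaJa-D on day 1, and from 1225 to 1454 CPM to between 2214 and 2859 CPM on day 5. For NaJa-F it went from 743 to 985 CPM to between 1104 and 1176 CPM on day 1, and from 660.1 to 712 CPM to between 1002 and 1031 CPM on day 5. For NaJa-G it went from 558 to 724 CPM to between 1328 and 1523 CPM on day 1, and from 497 to 565 CPM to between 1535 and 1744 CPM on day 5. Nearly all of it was Msln (mesothelin), with means of 664 and 1409 CPM in NaJa-G on day 1. The lone endothelial marker in the table of 3, Kdr, reached 1.36 CPM at most, and the lone leukocyte marker of 3, Cd68, lay between 3.32 and 7.26 CPM. The part of these markers in the changes of the 10 genes was not tested.

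The wider actin and myosin apparatus was described by lists chosen with earlier results of these data known. All 16 genes of the actin and actin-binding list were in the table. Under encorafenib 9 rose and 1 fell in NaJa-D on each day, 9 rose in NaJa-F on day 1 and 3 rose and 1 fell on day 5. In NaJa-G 14 rose and 1, the adhesion adaptor Pxn, fell on each day. Among all genes 35.3% and 28.5% rose in NaJa-G on days 1 and 5, 23.7% and 18.3% in NaJa-D, and 17.5% and 9.7% in NaJa-F. The median log2 change of the list was 0.71 and 0.76 in NaJa-G, 0.31 and 0.32 in NaJa-D, and 0.31 and 0.07 in NaJa-F. Actb, cytoplasmic beta-actin, was called under encorafenib in NaJa-G (log2 0.47 and 0.36, adjusted p 0.000135 and 0.00483) and in no encorafenib comparison of the other lines. The difference in its response between NaJa-G and either other line was not called on either day. Flna, a crosslinker of actin filaments, fell in NaJa-D (log2 -0.21 and -0.28) and rose in NaJa-G (log2 0.26 and 0.41).

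All 12 genes of the myosin list were in the table, and 7 rose in NaJa-D on day 1, 10 in NaJa-F on day 1 and 11 in NaJa-G on day 1. On day 5 the numbers that rose were 7, 3 and 9, and those that fell were 2, 1 and 0. These stand beside 23.7%, 17.5% and 35.3% of all genes rising on day 1, and 18.3%, 9.7% and 28.5% on day 5. Myh9, the heavy chain of non-muscle myosin IIA, rose by log2 1.00 and 0.94 in NaJa-G on days 1 and 5. In NaJa-D it rose by log2 0.42 and in NaJa-F by log2 0.36 on day 1. The light chain Myl6 rose by log2 1.05 and 1.06 in NaJa-G and by log2 0.63 and 0.62 in NaJa-D. Myl12a, a regulatory light chain of non-muscle cells, rose by log2 0.98 in NaJa-G on day 5.

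Apart from Acta2, Tagln and Cnn1, 4 of the other 8 genes on the smooth muscle differentiation list were in the table. Actg2, Lmod1, Tagln2 and Smtn all rose in NaJa-G on day 5, where 28.5% of all genes rose. On day 1 in NaJa-G, where 35.3% of all genes rose and 28.7% fell, the first 3 rose. Smoothelin (Smtn) fell there, by log2 -0.50 (adjusted p 6.88e-09). Smtn then rose by log2 0.53 on day 5 (adjusted p 4.18e-08), so its direction turned between the days. The response of Smtn was also called higher on day 5 than on day 1 in NaJa-D and NaJa-F. Tagln2, the transgelin of non-muscle cells, rose by log2 0.80 and 0.78 in NaJa-G. The filter of the table bears on Lmod1. With encorafenib on day 5 in NaJa-G, the summed mean of Actg2 and Lmod1 was 15.89 CPM, of which Actg2 made 14.86 CPM. With DMSO on that day their sum was 0.33 to 0.40 CPM. Actg2 had at least 1.27 CPM in NaJa-G with DMSO on day 1, so it met the limit there. Whether Lmod1 met it without encorafenib libraries was not tested, so its rise may not be independent of the filter.

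**Figure D4:**
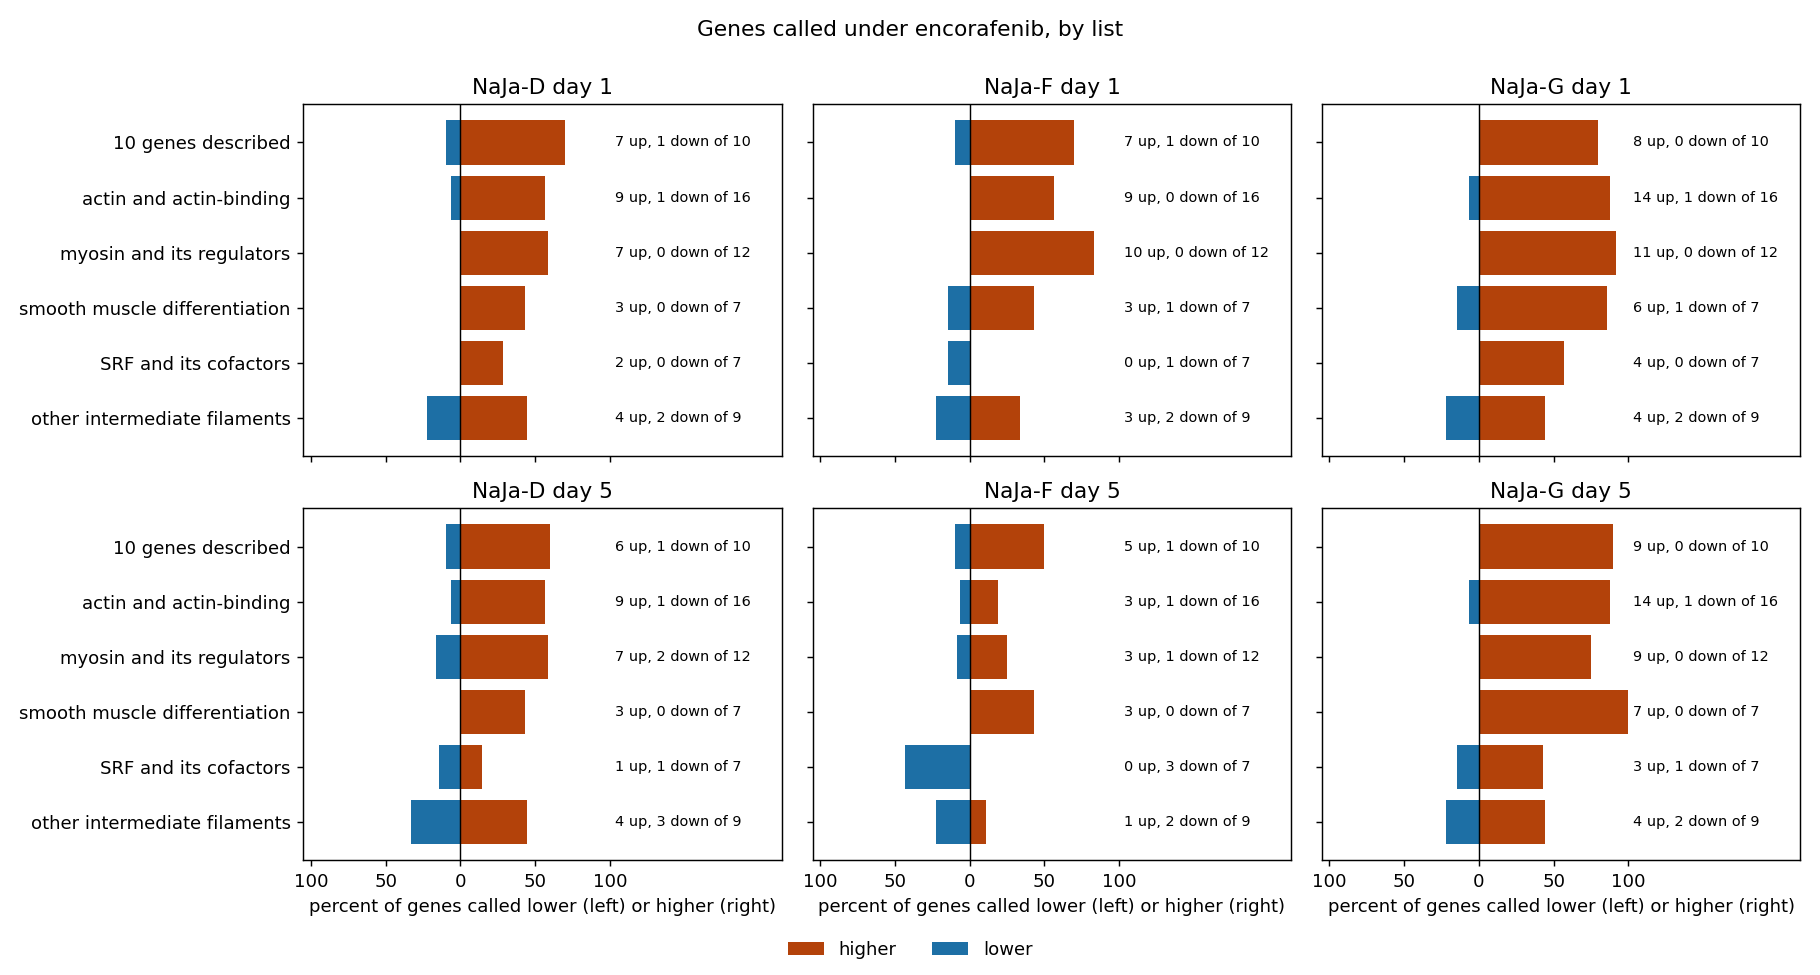
Percentage of genes called higher (right) or lower (left) under encorafenib in limma-voom at an adjusted p below 0.01, for the 10 genes and 5 lists in each line and day. Each bar carries its counts. The smooth muscle differentiation list includes Acta2, Tagln and Cnn1, and in NaJa-G the actin list has 14 of 16 genes higher on both days.

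SRF and its cofactors were 7 of 7 in the table. In NaJa-D 2 rose on day 1, and 1 rose and 1 fell on day 5 (44.9% and 33.0% of all genes called). In NaJa-F 1 fell on day 1 and 3 on day 5 (29.5% and 18.2% called). In NaJa-G 4 rose on day 1, and 3 rose and 1 fell on day 5 (64.0% and 53.2% called), with Srf itself and Myocd among the risers on both days. Mrtfb, a cofactor that responds to the pool of free actin, rose by log2 0.59 on both days in NaJa-G and by log2 0.29 in NaJa-D on day 1. Mrtfa, its relative, fell in NaJa-F by log2 -0.24 on day 1 and -0.37 on day 5. Elk3, an ERK-regulated cofactor, fell on day 5 in all 3 lines (log2 -0.23 for NaJa-D, -0.24 for NaJa-F and -0.51 for NaJa-G). The list of other intermediate filament genes, 9 of 9 in the table, went in both directions in every comparison. On day 1 NaJa-D had 4 higher and 2 lower, NaJa-F had 3 higher and 2 lower, and NaJa-G had 4 higher and 2 lower. On day 5 the numbers higher were 4, 1 and 4 and those lower 3, 2 and 2, beside the shares of all genes given for the SRF list. Named after their values were seen, Krt20, a keratin of differentiated gut epithelium, fell in 5 comparisons and rose in NaJa-D on day 1, and Nes (nestin) fell in 4 and rose in NaJa-G on day 5. Krt7, an epithelial keratin, rose in all 6 comparisons (log2 0.38 to 1.20). Krt8 rose in 4 of the 6 comparisons, and Krt18 rose in 1 of the 6, in NaJa-D on day 5.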

How the data were processed

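RNA sequencing was done on 34 libraries of 3 cell lines, grouped by the line, treatment and day in their titles. The deposited table holds raw read counts per gene, made by the authors with Trimmomatic 0.39 and STAR 2.5.2b on GRCm38. The counting program and its use of strand are not given in the sources used here. The table held 14107 genes, each above 1 CPM in at least 2 libraries, and symbols were found for 14064 of them, leaving 43 without.

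The counts were scaled by TMM (edgeR 4.0.16) and fitted with limma 3.58.1 (voom) in R 4.3.3, with 1 mean for each of the 12 groups and all libraries sharing the estimate of spread. A total of 21 comparisons were tested, 12 direct and 9 differences between encorafenib responses, with p-values adjusted over all genes at a threshold of 0.01. Levels per kilobase used the union of each gene's exons, and log2 CPM for correlations used a prior count of 2. Pearson likeness was taken over genes with a mean log2 CPM of at least 2. Alternatives were edgeR's quasi-likelihood test, DESeq2 1.42.0, other scalings, a count filter, a replicate block, a fit to the compared groups, a threshold of 0.05 and each library left out. The fits were tested on simulated data. Named genes were the 10 genes, the 3 most highly expressed genes of each list, all of a list with at most 5 genes in the table, and genes behind small counts, which were picked after their values were seen. The values of 1 gene that this rule names are not reported here. The 10 genes and the lists were chosen with earlier results of these data known. Replicates differed by more than sampling noise (chi-square per degree of freedom 3.30 to 85.0), so no library was merged. The depth of 46007050 to 80121299 counts leaves genes with few reads, such as Myl9 in NaJa-D, imprecise, and counting intervals cover counting error only.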

Additional observations from a re-analysis of the deposited data

Results flagged for a closer look

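The encorafenib response, the log2 change against DMSO of the same line and day, differed between lines or days for 51 combinations of gene and comparison by limma-voom, at an adjusted p below 0.01 for the difference itself. On day 1 the response of NaJa-F exceeded that of NaJa-D for Vim (0.90). On day 5 the same difference was called for Cnn2 (-0.69), Tpm1 (-0.34) and Cald1 (-0.53). Setting NaJa-G against NaJa-D, the day 1 differences were Vim (1.44), Cnn1 (2.11), Cnn2 (0.61), Tpm1 (0.34), Tpm2 (-2.33), Cald1 (1.23) and Vcl (1.14). By day 5 they were Vim (0.84), Acta2 (3.66), Tagln (1.85), Cnn1 (4.60), Cnn2 (0.65), Myl9 (3.05), Tpm1 (0.65), Cald1 (2.68) and Vcl (0.90). Setting NaJa-G against NaJa-F, the differences on day 1 were Vim (0.54), Acta2 (-1.36), Cnn2 (0.80), Tpm1 (0.52), Tpm2 (-1.56), Cald1 (1.52) and Vcl (0.99). Those on day 5 were Vim (0.92), Acta2 (3.79), Tagln (1.90), Cnn1 (3.48), Cnn2 (1.34), Myl9 (3.16), Tpm1 (0.99), Tpm2 (1.88), Cald1 (3.21) and Vcl (0.70).

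Between the days, the day 5 response minus that of day 1 was called in NaJa-D for Tpm1 (-0.48) and Vcl (-0.65). For NaJa-F it was called for Vim (-0.57), Cnn2 (-0.65), Tpm1 (-0.63), Cald1 (-0.49) and Vcl (-0.60). For NaJa-G it was called for Acta2 (3.95), Tagln (1.54), Cnn1 (4.71), Myl9 (2.89), Tpm2 (1.97), Cald1 (1.20) and Vcl (-0.88). The NaJa-G values on day 5 include the fall of these genes in DMSO over the culture time, and the DMSO group of that day had 2 libraries. No group of 4 or more libraries was present, so single libraries were not tested as outliers.

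Some of these differences lost their call in limma-voom when 1 library was left out. That of Vim between NaJa-G and NaJa-F on day 1 did so in 6 refits (0.46 to 0.51, adjusted p up to 0.0198), and that of Vim between days in NaJa-F in 9 refits (-0.65 to -0.51, adjusted p up to 0.0438). Tpm2 between NaJa-G and NaJa-F on day 5 was 1.12 (adjusted p 0.0621) without NaJa-F encorafenib replicate 1. Cnn1 between NaJa-G and NaJa-D on day 1 was 1.61 (adjusted p 0.0137) without NaJa-D encorafenib replicate 1. Between days in NaJa-F, Cald1 (-0.43, adjusted p 0.0122) and Vcl (-0.53, adjusted p 0.0121) lost the call without encorafenib day 5 replicate 2. Myl9 between NaJa-G and NaJa-D on day 5 was not called by edgeR (adjusted p 0.0387) or DESeq2 (adjusted p 0.0107).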

How the results depend on the processing

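For the 88 called values in direct comparisons, 1359 of 1413 alternative results kept direction and call, 53 lost the call and 1 reversed. The 1413 include those at a threshold of 0.05, which reuse the main fit and cannot lose a call. Cald1 between NaJa-G and NaJa-D reversed to -0.20 on DMSO day 5 alone. Among values not called, Tpm1 between NaJa-G and NaJa-F became -0.073 on day 5 alone. For time in NaJa-D, Myl9 became 0.24 with edgeR, 0.26 with DESeq2 and 0.12 by library size alone, Tpm2 became 0.16 by library size, and Vcl became 0.0032 with edgeR and 0.17 by library size. For time in NaJa-F, Tpm1 became 0.017 by library size. Leaving out 1 library gave ranges that crossed 0 for Cnn2 (-0.010 to 0.12) and Tpm2 (-0.43 to 1.10) under encorafenib in NaJa-F on day 5, and for Vim in NaJa-G on day 1 (-0.13 to 0.055). With time in NaJa-D the ranges were -0.16 to 0.44 for Cnn1, -0.57 to 0.47 for Myl9, -0.26 to 0.14 for Tpm2 and -0.10 to 0.11 for Vcl. In NaJa-F they were -0.46 to 0.29 for Acta2 and -0.18 to 0.0069 for Tagln. The cause was not tested, and depth limits the values of genes with few reads.

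Of the 10 genes, the number whose response differed between NaJa-F and NaJa-D on day 1 was 1, became 3 by library size and 4 at a threshold of 0.05, and was 1 to 2 without 1 library. Between NaJa-G and NaJa-D on day 1 it was 7, and 4 in the fit to those groups. Between days in NaJa-D it was 2, became 4 with edgeR, 0 in the fit to those groups (fewer libraries) and 5 at 0.05, and was 2 to 5 without 1 library. In NaJa-F it was 5, and 2 to 5 without 1 library. The 2 calls with time in NaJa-F became 1 to 2. Among all genes, calls went from 6335 to 3540 (encorafenib, NaJa-D, day 1) and from 4804 to 1182 (time, NaJa-G) in the fit to those groups, and from 2361 to 4053 (time, NaJa-F) at 0.05. For response differences, 1240 between NaJa-F and NaJa-D on day 1 became 2143 with DESeq2, 415 in the fit to those groups and 3223 at 0.05. At 0.05 the day 5 counts became 2207 from 1248 there and 4642 from 3089 between NaJa-G and NaJa-D. Between days, 1029 in NaJa-D became 261 and 2401 in those 2 settings, and 830 in NaJa-F became 1414 at 0.05. Without NaJa-D encorafenib day 1 replicate 3, the 1240 became 3937 and the 1029 became 3104. Leaving out certain other single libraries lowered these counts, to 645 and 581 at the least. The chi-square per degree of freedom of that replicate against the others of its group was 85.04 and 66.64. Between those others it was 10.97. With scaling by library size, the median over all genes became 0.18 for time in NaJa-D (4137 higher and 926 lower, against 1938 and 2152), 0.14 and 0.13 for NaJa-F and NaJa-G against NaJa-D (5983 and 3010 against 4592 and 4093, and 5864 and 3928 against 4702 and 4813), and 0.11 for encorafenib in NaJa-D on day 1 (4022 and 2298 against 3347 and 2988).

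With replicate numbers as a block, 8, 7, 8, 6, 8 and 9 of the 10 genes were called under encorafenib, as without it, and 6335 calls among all genes in NaJa-D on day 1 became 6321. The block added Cald1 with time in NaJa-D and removed the difference of Vim between days in NaJa-F. Same-numbered libraries correlated at -0.156 to 0.215 in their deviations from group means, and 7 of 16 correlated best with their own number. Deviations within such small groups constrain each other, so these values cannot show whether the numbers pair the samples.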
